A study of Mus musculus with 5 samples.

Results

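The genes described here are 9 nucleic acid sensors and interferon transcription factors, matched by symbol among the 27998 annotated genes of a mouse mammary gland single-cell RNA-seq series. All 9 were found in each of the 5 libraries: the DNA sensors Mb21d1 (the gene of cGAS) and Zbp1, the adaptor Tmem173 (the gene of STING), the RNA sensors Ddx58 (RIG-I) and Ifih1 (MDA5), and the transcription factors Stat2, Irf1, Irf7 and Irf9. The series asked how 4-nitroquinoline 1-oxide (4NQO), a DNA-damaging carcinogen used to impose replication stress, acts on Brca1 heterozygous mammary tissue. BPK animals carried Brca1 wt/flox, Trp53 flox/flox and Krt14cre, and PK animals carried Brca1 wt/wt with the same Trp53 flox/flox and Krt14cre alleles. Every group therefore shares the floxed Trp53 alleles and a Cre driven in keratin 14 cells, and no library lacks them. The 4 groups were 1 BPK tumor library taken after 24 injections of 4NQO, 2 libraries of BPK glands after 12 injections of 4NQO, 1 library of PK glands after 12 injections of 4NQO, and 1 library of BPK glands after 12 injections of vehicle (PBS with PEG). Only BPK 4NQO has replicates, and the labels do not say whether these are separate animals, so p-values between groups measure only the spread between those 2 libraries, which may be technical.

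Cells detect misplaced nucleic acid with dedicated receptors. cGAS binds double-stranded DNA in the cytosol and makes a cyclic dinucleotide that activates STING, whereas RIG-I and MDA5 bind viral or cellular double-stranded RNA and signal through the mitochondrial adaptor MAVS. Both routes lead to type I interferon, whose receptor activates STAT2, and STAT2 acts with IRF9 at the interferon-stimulated response element of target genes. Many sensors and factors are themselves interferon-stimulated. IRF7 amplifies interferon production, IRF1 responds strongly to interferon gamma, and ZBP1 senses Z-form nucleic acid and can trigger necroptosis.

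Because several of these genes are known interferon targets, their promoters were read for interferon elements. The RefSeq windows on GRCm38.p6 run from 250 bases before to 50 bases after each annotated start. Windows were read for 7 of the 9 members, with 9 windows. No window was read for Tmem173 or Zbp1, so no motif result is given for either. The core of the interferon-stimulated response element, a pair of GAAA half-sites with 2 bases of any kind between them, was searched on both strands and is present in 3.44% of all 32851 windows of this length. It was found in the windows of Ifih1, Ddx58 and Stat2, and not in those of Irf7, Irf9, Irf1 or Mb21d1. The motif TTCNNNGAA, the palindrome bound by STAT family factors, reads the same on both strands and is present in 8.30% of windows. Among the members read it was found in 1 of the 2 Irf1 windows. A match of letters is a description and does not show binding. These 4 windows are shown because they carry the matches, with the matching letters in capitals and each sequence 5′ to 3′ on the strand of its gene.

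Ifih1, chr2:62646206-62646505, minus strand: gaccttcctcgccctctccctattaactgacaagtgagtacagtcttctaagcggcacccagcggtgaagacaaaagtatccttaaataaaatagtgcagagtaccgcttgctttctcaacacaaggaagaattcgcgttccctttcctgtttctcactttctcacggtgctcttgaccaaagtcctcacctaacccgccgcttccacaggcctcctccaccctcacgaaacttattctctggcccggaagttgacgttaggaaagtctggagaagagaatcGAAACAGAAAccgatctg

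Ddx58, chr4:40239776-40240075, minus strand: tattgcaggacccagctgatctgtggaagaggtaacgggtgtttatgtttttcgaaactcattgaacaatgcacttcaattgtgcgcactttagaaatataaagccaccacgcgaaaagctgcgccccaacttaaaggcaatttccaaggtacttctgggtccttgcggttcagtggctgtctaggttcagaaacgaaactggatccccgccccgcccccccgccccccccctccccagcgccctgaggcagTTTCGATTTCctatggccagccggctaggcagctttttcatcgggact

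Stat2, chr10:128270248-128270547, plus strand: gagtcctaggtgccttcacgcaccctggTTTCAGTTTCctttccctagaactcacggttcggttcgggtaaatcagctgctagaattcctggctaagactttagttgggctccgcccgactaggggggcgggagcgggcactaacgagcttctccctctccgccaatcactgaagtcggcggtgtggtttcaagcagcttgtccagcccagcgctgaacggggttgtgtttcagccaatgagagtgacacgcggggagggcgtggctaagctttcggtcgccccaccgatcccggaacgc

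Irf1, chr11:53769764-53770063, plus strand: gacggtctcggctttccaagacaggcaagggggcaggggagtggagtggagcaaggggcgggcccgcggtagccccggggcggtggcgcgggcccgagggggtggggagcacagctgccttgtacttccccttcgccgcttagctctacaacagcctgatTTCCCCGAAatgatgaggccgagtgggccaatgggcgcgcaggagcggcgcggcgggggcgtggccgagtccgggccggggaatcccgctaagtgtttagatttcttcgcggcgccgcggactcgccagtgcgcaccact

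The Ifih1 match begins at position 33 and the Ddx58 match at position 3 counted from the annotated start, so both lie downstream of it. The Stat2 match begins at position -222 and the Irf1 match at position -90. In Ddx58 and Stat2 the core reads on the opposite strand, as TTTCGATTTC and TTTCAGTTTC.

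The libraries held between 27383717 and 64169843 unique molecules (UMIs), and 31481 of 34526 barcodes were kept. Clusters were named from marker genes, and 8 classes with at least 30 cells in each of the 4 gland libraries were compared: luminal alveolar-like, luminal hormone-sensing-like, basal-like, fibroblast-like, endothelial-like, pericyte-like, macrophage-like and T and NK lymphocyte-like cells. The tumor library had enough cells in 5 of these, and had 1063 keratinocyte-like cells besides. Levels are UMI counts scaled to a class total of 1000000 UMIs (CPM). Each is a share of the UMIs of a class and not an amount of RNA per cell, so it also moves with the other transcripts. Levels over all cells follow in addition how many cells of each class a library holds. The cell mix and the levels within classes cannot be told apart there. BPK 4NQO replicate 2 stands apart from the other libraries in technical terms. It shared at most 2 cell barcodes with any of them, against 26 to 107 among the other pairs. The ribosomal-RNA-like transcript Gm42418 took 6.26% of its UMIs, against 0.0613 to 0.196% elsewhere, and ribosomal protein genes took 13.4%, against 22.8 to 32.3%. All comparisons of BPK 4NQO are therefore given with each library on its own.

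Each member had its own distribution over cell classes, set out here for the 4 gland libraries as the median with the lowest and highest. Each class was set against the mean of the other 7 in edgeR's quasi-likelihood test with a term for library, so these p-values measure the spread of class profiles over the 4 gland libraries. Of 72 gene and class tests of members, 19 were called higher and 17 lower at an adjusted p under 0.05, or 26.4% and 23.6%, and 26.2% and 20.9% of all 99424 gene and class tests were called. The members thus vary between classes about as often as genes in general.

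Tmem173, the STING gene, was highest in endothelial-like cells, with a median of 80.0 CPM and a range of 57.7 to 102 CPM over the 4 gland libraries, and this range did not overlap that of the next class, T and NK lymphocyte-like cells (12.2 to 45.3 CPM). The difference from the mean of the other classes was 1.63 ± 0.15 on the log2 scale (edgeR, adjusted p = 7.9e-11), and it was 1.83 without BPK 4NQO replicate 2. Tmem173 was lowest in pericyte-like cells, at a median of 6.30 CPM. Mb21d1, which encodes the enzyme that feeds STING, was scarce everywhere, with 67 to 202 UMIs in a whole library. Its highest medians were 17.2 CPM in T and NK lymphocyte-like cells and 10.4 CPM in endothelial-like cells, where the range was 9.11 to 15.0 CPM. It was lower in luminal hormone-sensing-like cells by -2.16 ± 0.37 (edgeR, adjusted p = 1.1e-05), at 0.675 to 1.43 CPM. Endothelial-like cells were thus above the mean of the other classes for both the DNA sensor and its adaptor, with Mb21d1 at 1.47 ± 0.32 (adjusted p = 0.00034).

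Zbp1 followed another order. It was higher in macrophage-like (1.53 ± 0.24), T and NK lymphocyte-like (1.34 ± 0.28) and fibroblast-like cells (1.32 ± 0.21; edgeR, adjusted p between 2.7e-06 and 0.00019), and lower in basal-like, luminal hormone-sensing-like, endothelial-like and pericyte-like cells. Ifih1 was higher in macrophage-like cells by 3.74 ± 0.31 (edgeR, adjusted p = 5.4e-12), and by 2.15 (adjusted p = 1.0e-06) without BPK 4NQO replicate 2, whose macrophage-like cells are described below. It was lower in basal-like cells by -2.11 ± 0.44 (adjusted p = 0.00016), where the range was 1.60 to 13.5 CPM. Ddx58 was the most even of the sensors by class medians, which lay between 17.4 CPM in macrophage-like and 31.9 CPM in luminal alveolar-like cells. It was still called higher in luminal alveolar-like and lower in basal-like cells. Every neighbouring pair of classes in its order overlapped, as for every member but Tmem173 and Irf1.

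Irf1 was highest in the vascular and stromal classes, with medians of 440 CPM in pericyte-like, 353 CPM in endothelial-like and 225 CPM in fibroblast-like cells, against 54.9 CPM in luminal hormone-sensing-like cells. These differences were called in pericyte-like (1.41), endothelial-like (1.21) and fibroblast-like cells (0.69). Irf7 was highest in macrophage-like cells, at a median of 160 CPM and a range of 31.7 to 294 CPM (1.99 above the other classes), with fibroblast-like cells next at 98.4 CPM, and was lowest in basal-like cells at 16.9 CPM. Irf9, the DNA-binding partner of STAT2, had the flattest profile, with medians from 22.1 CPM in pericyte-like to 38.9 CPM in endothelial-like cells and 1 call, lower in fibroblast-like cells (-0.54). Stat2 was called higher in endothelial-like, fibroblast-like and macrophage-like cells, and the macrophage-like call rested on BPK 4NQO replicate 2: the difference was 1.13 with it and 0.41 (adjusted p = 0.56) without it.

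**Figure D1:**
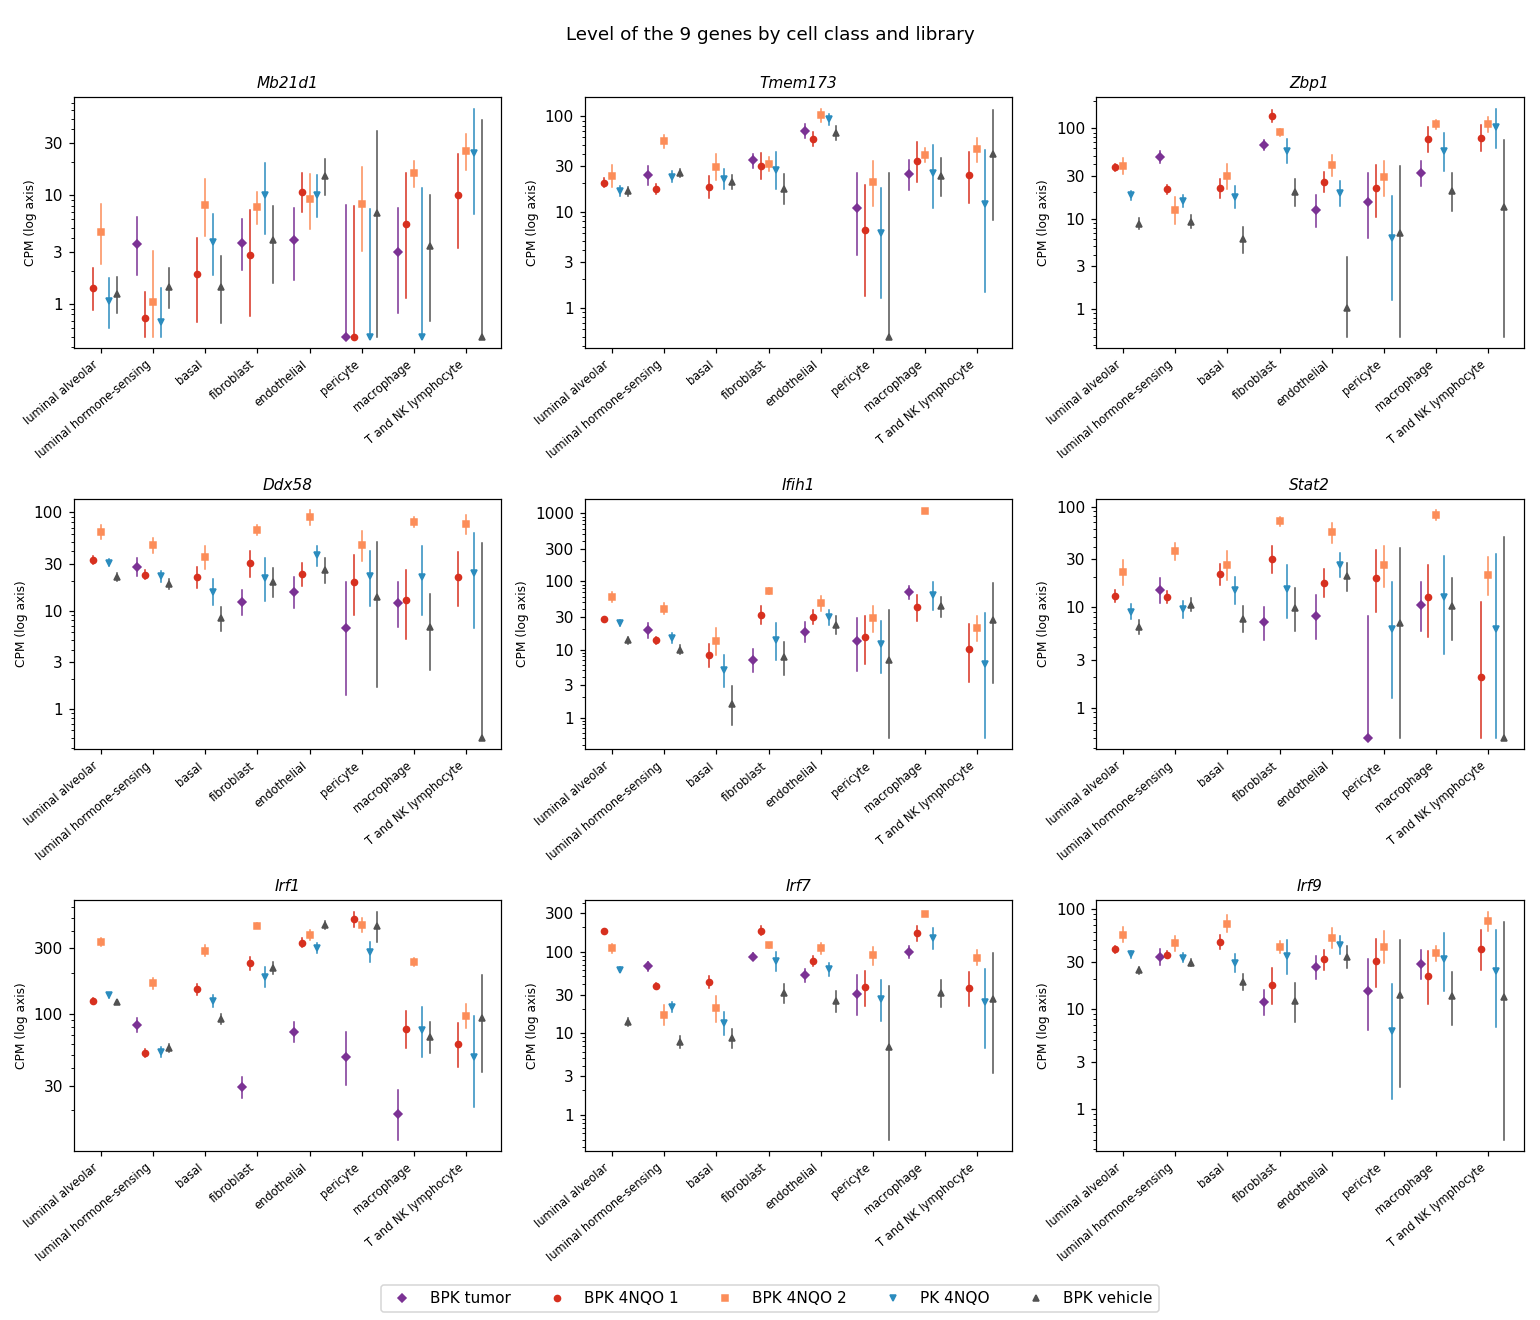
Level of each of the 9 members by cell class and library, in CPM on a log axis, with bars for the exact Poisson 95% interval of the count and zero counts drawn at 0.5. Irf7 and Zbp1 lie above BPK vehicle in both BPK 4NQO libraries in all 8 classes. Their BPK vehicle values in pericyte-like and T and NK lymphocyte-like cells rest on at most 2 UMIs. The single far point is Ifih1 in macrophage-like cells of BPK 4NQO replicate 2 (1086 CPM).

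After 12 injections of 4NQO, BPK glands had higher levels of most members than BPK vehicle glands in most classes. Of the 72 member and class pairs, 56 were above BPK vehicle in both BPK 4NQO libraries and 4 were below it in both, which is 77.8% higher and 5.56% lower, against 33.5% and 24.2% of all gene and class pairs. The member pairs were counted without a filter, and the gene pairs are those that passed it. In pericyte-like and T and NK lymphocyte-like cells 7 and 6 members passed. Every member but Irf1 had at most 3 UMIs there in BPK vehicle. The pair counts of the other comparisons below were made in the same way. Taking BPK 4NQO replicate 1 alone, 56 pairs were above BPK vehicle and 16 below (all genes 50.3% above), and taking replicate 2 alone, 68 were above (all genes 58.9%). The single vehicle library gives no spread of its own, and 1 member call passed the adjusted threshold in 76 tests, against 0.228% of genes called higher over the classes. Without adjustment, 22 of the 76 member tests (28.9%) had p under 0.05, and 2.85% of tests over all genes did.

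Irf7 gave the clearest graded values. In luminal alveolar-like cells, the milk-lineage epithelium, it stood at 179 and 110 CPM in BPK 4NQO replicates 1 and 2, 60.6 CPM in PK 4NQO and 13.8 CPM in BPK vehicle. Both BPK 4NQO libraries lay far above the vehicle library and above PK 4NQO. The fitted difference was 3.25 ± 0.91 on the log2 scale, with an adjusted p of 0.077 in edgeR and 0.0031 in DESeq2. With each cell thinned to 1000 UMIs, Irf7 was detected in 17.4% and 10.5% of luminal alveolar-like cells of BPK 4NQO, 6.18% of PK 4NQO and 1.27% of BPK vehicle. Without thinning the shares were 64.6%, 25.3%, 25.3% and 11.2%. In basal-like cells, where Irf7 is low, the thinned shares were 3.90%, 2.57%, 1.12% and 0.793% in the same library order. The summed level of the macrophage marker list in these luminal alveolar-like cells was 9.85 and 68.0 CPM in BPK 4NQO, 10.8 CPM in PK 4NQO and 11.6 CPM in BPK vehicle, and its part in the result was not tested.

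Irf7 was above BPK vehicle in both BPK 4NQO libraries in 8 of 8 classes. In fibroblast-like cells it had 182 and 120 CPM in BPK 4NQO, against 31.2 CPM in BPK vehicle. Endothelial-like cells had 77.4 and 111 CPM in BPK 4NQO, against 24.8 CPM in BPK vehicle, and macrophage-like cells had 170 and 294 CPM, against 31.7 CPM. Luminal hormone-sensing-like cells differed less, at 38.2 and 17.0 CPM in BPK 4NQO and 7.88 CPM in BPK vehicle. None of these passed the adjusted threshold in edgeR. In BPK vehicle the T and NK lymphocyte-like value (26.7 CPM) rests on 2 UMIs and the pericyte-like value (6.9 CPM) on 1 UMI.

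Zbp1 was the other member that lay above BPK vehicle in both BPK 4NQO libraries in 8 of 8 classes, and it gave the 1 call. Its BPK vehicle values in pericyte-like and in T and NK lymphocyte-like cells rest on 1 UMI each. In endothelial-like cells it had 25.7 and 39.2 CPM in BPK 4NQO (60 and 56 UMIs), 19.2 CPM in PK 4NQO and 1.04 CPM in BPK vehicle (2 UMIs). The ratio of the BPK 4NQO mean to BPK vehicle was 31.4, with a 95% counting interval of 8.68 to 259, and the edgeR log2 difference was 4.83 ± 1.06 (adjusted p = 0.00745), in a class where 0.208% of genes were called higher. The call was lost with DESeq2 (adjusted p = 0.29) and when predicted doublets were kept (2.83, edgeR adjusted p = 0.25), since the vehicle count then became 12 UMIs. The macrophage marker list summed to 14.5 and 86.2 CPM in the endothelial-like cells of BPK 4NQO and 11.9 CPM in those of BPK vehicle, and its part in the result was not tested. Fibroblast-like cells, with larger counts, had 137 and 90.3 CPM of Zbp1 in BPK 4NQO, 56.6 CPM in PK 4NQO and 19.7 CPM in BPK vehicle. Macrophage-like cells had 76.1 and 110 CPM in BPK 4NQO, against 20.4 CPM in BPK vehicle.

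The RNA sensors Ddx58 and Ifih1 were above BPK vehicle in both BPK 4NQO libraries in 7 and 6 of 8 classes. Their BPK vehicle counts in pericyte-like cells were 2 and 1 UMIs, and that of Ddx58 in T and NK lymphocyte-like cells was 0. For Ddx58 the higher value came from replicate 2 in every class; luminal alveolar-like cells had 32.9 and 63.4 CPM in BPK 4NQO, 30.9 CPM in PK 4NQO and 21.9 CPM in BPK vehicle. In endothelial-like cells replicate 1 (23.5 CPM) was below BPK vehicle (25.9 CPM) and replicate 2 (89.0 CPM) above it. Ifih1 in basal-like cells had 8.40 and 13.5 CPM in BPK 4NQO, 5.07 CPM in PK 4NQO and 1.60 CPM in BPK vehicle. That log2 difference was 2.59 ± 0.89 (edgeR, adjusted p = 0.30), and 3.51 (adjusted p = 0.014) when cells were classed one by one in place of by cluster. The macrophage marker list in these basal-like cells summed to 15.6 and 113 CPM in BPK 4NQO, 9.46 CPM in PK 4NQO and 8.97 CPM in BPK vehicle. In replicate 2 the basal-like Ifih1 level was 1.24% of the macrophage-like one and the marker list 1.60%, and its part in the result was not tested. Stat2 and Irf9, which act together on DNA, were each above BPK vehicle in both BPK 4NQO libraries in 7 classes. In pericyte-like and T and NK lymphocyte-like cells BPK vehicle had 1 and 0 UMIs of Stat2, and 2 and 1 UMIs of Irf9. For Stat2 in T and NK lymphocyte-like cells the BPK 4NQO mean was 11.4 CPM. The floor of 3 UMIs in BPK vehicle lay at 40.05 CPM there, so no rise can be read. Stat2 in fibroblast-like cells had 30.4 and 71.1 CPM in BPK 4NQO, against 9.86 CPM in BPK vehicle. Irf9 in basal-like cells had 47.3 and 72.2 CPM in BPK 4NQO, 29.4 CPM in PK 4NQO and 18.7 CPM in BPK vehicle.

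Irf1, Mb21d1 and Tmem173 did not share this pattern over all classes. Irf1 was above BPK vehicle in both BPK 4NQO libraries in 5 classes, among them basal-like cells with 151 and 289 CPM, against 92.4 CPM, and below it in endothelial-like cells, with 331 and 375 CPM against 447 CPM. Tmem173 was above in 4 classes, among them pericyte-like cells, where BPK vehicle had 0 UMIs. For Tmem173 in endothelial-like cells the 2 libraries lay on either side of BPK vehicle, at 57.7 and 102 CPM against 67.3 CPM. Mb21d1 was above in 4 classes, among them macrophage-like and T and NK lymphocyte-like cells, where BPK vehicle had 3 and 0 UMIs. It was below in luminal hormone-sensing-like and endothelial-like cells, with 10.7 and 9.11 CPM against 15.0 CPM in endothelial-like cells. In endothelial-like cells, Mb21d1 and Tmem173 were therefore not above BPK vehicle in both BPK 4NQO libraries, while Irf7 and Zbp1 in the same cells were.

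**Figure D2:**
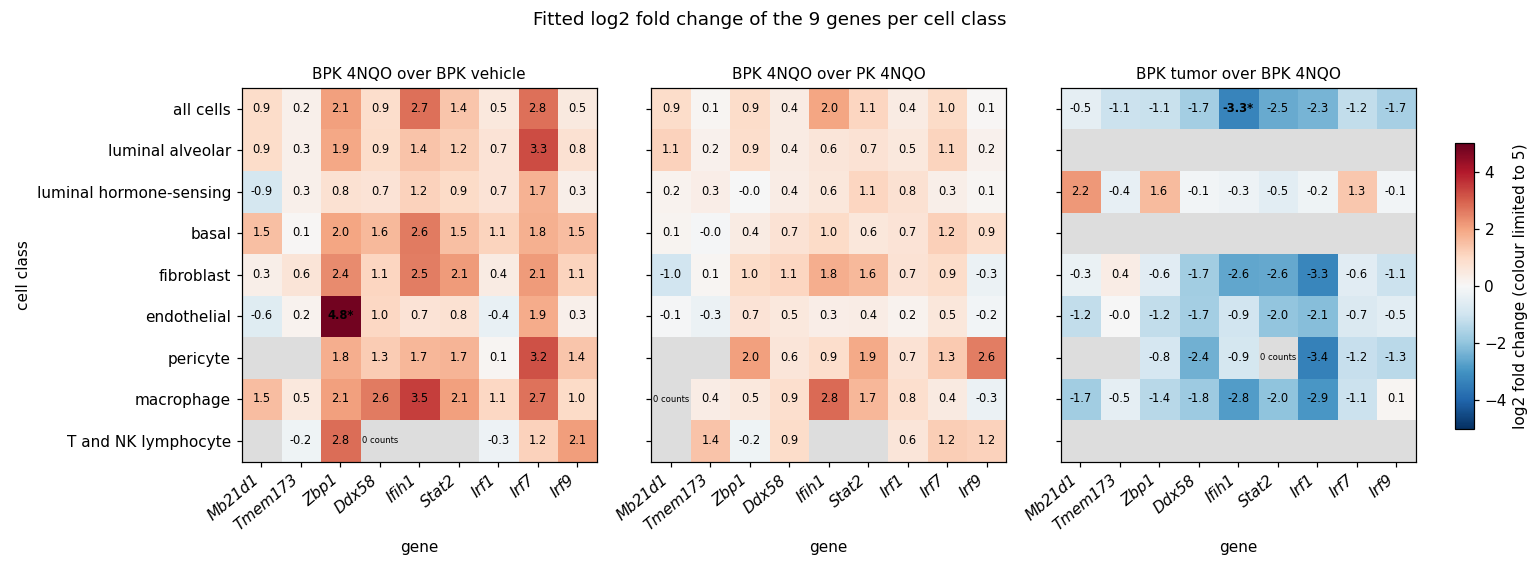
Log2 difference of each member in each class for BPK 4NQO against BPK vehicle, BPK 4NQO against PK 4NQO, and BPK tumor against BPK 4NQO, with an asterisk for an adjusted p under 0.05 and grey for pairs not tested or at 0 UMIs in the single library. The first 2 maps are mostly positive and the tumor map mostly negative. In the tumor map Mb21d1, Zbp1 and Irf7 are positive in luminal hormone-sensing-like cells, and 1 member is positive in each of fibroblast-like and macrophage-like cells. There is 1 asterisk for Zbp1 in endothelial-like cells after 4NQO and 1 for Ifih1 over all cells of the tumor.

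Ifih1 in the macrophage-like cells of BPK 4NQO replicate 2 stood apart from every other value. It had 1086 CPM there, from 3695 UMIs in 837 cells, against 41.7 CPM in BPK 4NQO replicate 1. BPK tumor had 68.9 CPM, PK 4NQO 63.2 CPM and BPK vehicle 43.1 CPM, so only 1 of 5 libraries was high. All 6 macrophage-like clusters of replicate 2 were high, between 677 and 2201 CPM, and single cells held up to 43 UMIs. The 7 macrophage-like clusters of the other libraries lay between 20.2 and 94.1 CPM, with at most 6 UMIs in a cell. After thinning to 1000 UMIs, Ifih1 was detected in 46.3% of these cells in replicate 2 and 6.62% in replicate 1, against 7.45% in BPK tumor, 8.82% in PK 4NQO and 5.10% in BPK vehicle. Unthinned, the shares were 70.7%, 11.9%, 27.3%, 10.3% and 11.6% in the same order. Basal-like cells, the class with the lowest Ifih1, had a thinned share of 1.12% in replicate 2 and 0.0610% in BPK vehicle.

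Among 7463 genes tested in macrophage-like cells, Ifih1 had the 4th largest ratio of replicate 2 to replicate 1, after Gm42418, Lars2 and AY036118. Gm42418 and AY036118 overlap ribosomal RNA sequence, and Lars2 encodes a mitochondrial leucyl-tRNA synthetase. The next places held Gm26778, Inhba, Slfn5, Gbp5, Rsad2 and Parp14, of which Slfn5, Gbp5, Rsad2 and Parp14 are interferon-inducible. Lars2 had 1147 CPM in the macrophage-like cells of replicate 2 and 1.81 CPM in those of replicate 1. Gm42418 and Lars2 were high in every class of replicate 2, whereas Ifih1 in its other classes was between 13.5 and 71.9 CPM. The Ifih1 gene lies at chr2:62595798-62646255 on mm10. Its neighbour Gca had 6.17 CPM in macrophage-like cells of replicate 2 and 12.7 CPM in those of replicate 1. Fap, the neighbour on the other side, had 35.3 CPM (120 UMIs) in those of replicate 2 and 0 UMIs in those of replicate 1. Fibroblast-like cells of replicate 2 had 131 CPM of Fap, and the source of the macrophage-like value was not tested. Whether the library's preparation has a part in the Ifih1 value was not tested.

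**Figure D3:**
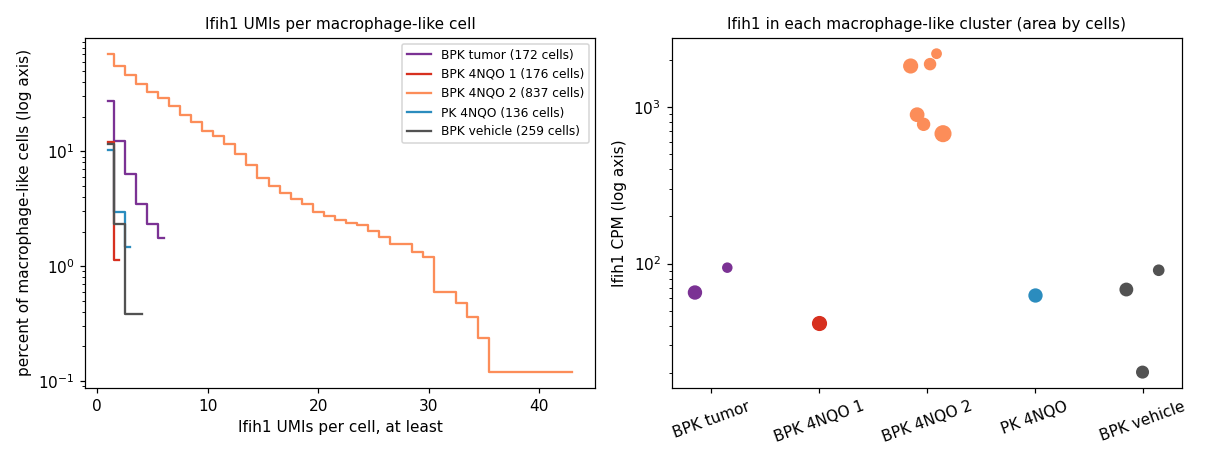
Left, percent of macrophage-like cells with at least a given number of Ifih1 UMIs in each library; right, Ifih1 level in CPM on a log axis in each macrophage-like cluster by library. The BPK 4NQO replicate 2 curve extends to 43 UMIs and its 6 clusters lie at 677 to 2201 CPM, above the 7 clusters of the other libraries.

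Comparing BPK 4NQO with PK 4NQO asks whether the Brca1 allele matters at the same number of injections. Of the 72 member and class pairs, 48 were above PK 4NQO in both BPK 4NQO libraries and 1 was below, or 66.7% and 1.39%, against 34.0% higher and 24.5% lower of all gene and class pairs. Some higher pairs rest on few PK 4NQO UMIs, such as 0 for Mb21d1 in macrophage-like and 1 for Ifih1 in T and NK lymphocyte-like cells. With replicate 1 alone 51 pairs were above and 20 below (all genes 50.8% above), and with replicate 2 alone 68 were above (all genes 58.6%). No member passed the adjusted threshold in edgeR or DESeq2 in 76 tests, 3 had p under 0.05 before adjustment in edgeR (3.95%, against 2.62% of all tests), and 0.173% of genes were called higher. PK 4NQO is 1 library made with an older Cell Ranger version, which cannot be told apart from its genotype. This comparison and the one with BPK vehicle share the BPK 4NQO libraries. Irf7 in luminal alveolar-like cells had 179 and 110 CPM in BPK 4NQO and 60.6 CPM in PK 4NQO, a log2 difference of 1.12 ± 0.80. Zbp1 in fibroblast-like cells had 137 and 90.3 CPM in BPK 4NQO and 56.6 CPM in PK 4NQO. Stat2 in the same cells had 30.4 and 71.1 CPM, against 15.1 CPM.

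For 34 of the 72 pairs (47.2%) both BPK 4NQO libraries were above PK 4NQO and PK 4NQO was above BPK vehicle, an order that 10.6% of all gene and class pairs showed. Irf7 held it in 6 classes, Zbp1 and Ifih1 in 5 each, Tmem173, Ddx58, Stat2 and Irf9 in 4 each, Irf1 in 2 and Mb21d1 in 0. PK 4NQO and BPK vehicle differ in genotype as well as in treatment. The 9 members summed over all cells came to 377 and 850 CPM in BPK 4NQO, 304 CPM in PK 4NQO and 228 CPM in BPK vehicle.

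The BPK tumor library, set against the BPK 4NQO glands, had lower levels of most members. Over all cells the 9 members summed to 113 CPM in BPK tumor, against 377 and 850 CPM in BPK 4NQO. In the 5 classes with enough cells, 30 of 45 member and class pairs were below both BPK 4NQO libraries and 4 above, or 66.7% lower and 8.89% higher, against 39.8% and 30.4% of all gene and class pairs. The 4 above were Tmem173 in fibroblast-like cells and Mb21d1, Zbp1 and Irf7 in luminal hormone-sensing-like cells. With BPK 4NQO replicate 1 alone 30 pairs were lower and 14 higher (all genes 52.0% lower), and with replicate 2 alone 41 were lower (all genes 57.4%). In each of the 5 classes the keratinocyte marker list was higher in BPK tumor, at 684 to 2441 CPM, against 13.7 to 395 CPM in BPK 4NQO, and its part in the results was not tested. Ifih1 over all cells was the 1 call, at 6.51 CPM in BPK tumor against 20.7 and 188 CPM in BPK 4NQO, a log2 difference of -3.32 ± 1.00 (edgeR, adjusted p = 0.024). That contrast called 2.01% of genes lower over all cells, and the Ifih1 difference was -4.74 against replicate 2 alone and -1.60 against replicate 1 alone. The value over all cells follows the cell mix too: BPK tumor held 1063 keratinocyte-like cells of 2241, and 172 macrophage-like cells, against 176 and 837 macrophage-like cells in BPK 4NQO replicates 1 and 2.

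Irf1 was low within the stromal and vascular classes of the tumor. Fibroblast-like cells had 29.2 CPM in BPK tumor, against 234 and 440 CPM in BPK 4NQO, with a log2 difference of -3.26 ± 1.12 (adjusted p = 0.10 in edgeR and 0.00685 in DESeq2). Pericyte-like cells had 48.6 CPM in BPK tumor, against 490 and 445 CPM in BPK 4NQO (adjusted p = 0.21 in edgeR and 0.012 in DESeq2), and endothelial-like cells had 73.9 CPM, against 331 and 375 CPM. The 37 tumor pericyte-like cells carried 6648 CPM of the fibroblast marker list, against 691 and 2484 CPM in BPK 4NQO, and the part of this in the result was not tested. Macrophage-like cells had 18.7 CPM in BPK tumor, against 77.9 and 240 CPM. In each of these 4 classes the BPK tumor value was also below those of PK 4NQO and BPK vehicle. Irf7 in the same classes was closer, for example 87.8 CPM in fibroblast-like cells of BPK tumor, against 182 and 120 CPM in BPK 4NQO and 31.2 CPM in BPK vehicle. The macrophage marker list in endothelial-like cells summed to 225 CPM in BPK tumor, against 14.5 and 86.2 CPM in BPK 4NQO, and its part in the Irf1 values was not tested.

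In luminal hormone-sensing-like cells 3 of the 9 members were above both BPK 4NQO libraries, Irf9 was below both, and the remaining 5 were neither. Of all genes tested in this class, 28.2% were above both and 40.05% below both, so the share of members above is near that of genes in general. The keratinocyte marker list in these cells summed to 2441 CPM in BPK tumor, against 174 and 216 CPM in BPK 4NQO. Irf7 had 66.8 CPM in BPK tumor, against 38.2 and 17.0 CPM in BPK 4NQO, and Zbp1 had 48.1 CPM, against 21.2 and 12.5 CPM. Mb21d1 was the third, with 12 UMIs in BPK tumor, against 12 and 3 UMIs in BPK 4NQO. Their log2 differences were 1.33, 1.58 and 2.16, and none passed the adjusted threshold in edgeR or DESeq2. The 1063 keratinocyte-like cells of BPK tumor, with 14110 CPM of the keratinocyte marker list and 127 CPM of the luminal alveolar list, summed to 59.3 CPM over the 9 members, with Irf7 at 12.7 CPM and Irf1 at 22.0 CPM. No comparison is made with the cells given that name in other libraries, because they carried other markers: 4875 CPM of the keratinocyte and 1185 CPM of the luminal alveolar list in BPK 4NQO replicate 2, and 1229 CPM and 5356 CPM in BPK vehicle.

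The genes that act downstream of these factors were followed through a list of 20 interferon-stimulated targets. After 4NQO, targets were called higher in BPK glands in 3 classes and over all cells, and none was called lower (edgeR). In basal-like cells 5 of the 18 targets that passed the filter were higher: Cxcl10, Oasl2, Rtp4, Parp14 and Ifit1, where 0.29% of all genes were. Ifit1, an RNA-binding antiviral protein, had 50.4 and 15.5 CPM in BPK 4NQO, 8.11 CPM in PK 4NQO and 0.640 CPM in BPK vehicle (4 UMIs; 5.60 ± 0.96, adjusted p = 6.7e-06). Cxcl10, a chemokine for activated T cells, had 99.9 and 31.7 CPM in BPK 4NQO, 14.2 CPM in PK 4NQO and 3.68 CPM in BPK vehicle. In luminal alveolar-like cells 3 of 19 were higher, beside 0.309% of all genes. They were Cxcl10, Rsad2 and Ifit3, with Cxcl10 at 51.5 and 110 CPM in BPK 4NQO, 15.7 CPM in PK 4NQO and 7.05 CPM in BPK vehicle. In fibroblast-like cells, where 0.276% of genes were called higher, 1 of 18 was, Ifi44, with 16.2 and 45.0 CPM in BPK 4NQO and 0 UMIs in BPK vehicle, at least 18.7-fold higher against a floor of 3 UMIs.

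The median log2 difference over the targets that passed the filter was 3.31 in basal-like, 2.06 in luminal alveolar-like and 1.99 in fibroblast-like cells, beside 0.019, -0.00085 and 0.058 over all genes tested. Over all cells 2 of 19 targets, Oasl1 and Ifit2, were called higher against both BPK vehicle and PK 4NQO, where 0.462% and 0.364% of genes were. With RLE size factors neither was called against either (edgeR, adjusted p = 1), and both rest on replicate 2: Oasl1 had 4.39 and 166 CPM in BPK 4NQO replicates 1 and 2, 3.81 CPM in PK 4NQO and 2.54 CPM in BPK vehicle. With DESeq2 no target was called against PK 4NQO. Of the 12 pathway calls against BPK vehicle, 6 held with DESeq2, and those lost were Ifit2 over all cells, Oasl2, Parp14 and Rtp4 in basal-like cells, Ifi44 in fibroblast-like cells and Rsad2 in luminal alveolar-like cells (adjusted p between 0.0618 and 0.402). Of 13 further RNA-sensing genes, Ddx60, a RIG-I cofactor, was called higher in luminal alveolar-like cells, with 13.4 and 33.2 CPM in BPK 4NQO, 7.21 CPM in PK 4NQO and 1.84 CPM in BPK vehicle (3.40 ± 0.75, adjusted p = 0.0041). None of 15 other DNA-sensing and nuclease genes, 16 interferon receptor and JAK-STAT genes or 6 other IRF genes was called in this comparison by edgeR or DESeq2. Before adjustment, 1 of 102 tests of the DNA-sensing list had p under 0.05 (0.98%), as had 11 of 133 of the receptor and JAK-STAT list (8.27%), 6 of 44 of the IRF list (13.6%), 11 of 86 of the RNA-sensing list (12.8%) and 72 of 154 of the target list (46.8%), beside 2.85% of all genes. In luminal alveolar-like cells the median of the DNA-sensing list was -0.070, beside 0.44 for the RNA-sensing list.

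In the tumor comparison, 5 of 18 targets in fibroblast-like cells were called lower, beside 1.21% of all genes: Cxcl10, Rsad2, Cmpk2, Parp14 and Ifit2. Cxcl10 had 12.2 CPM in BPK tumor, against 270 and 241 CPM in BPK 4NQO (-4.16 ± 1.10, edgeR adjusted p = 0.012), and Rsad2 had 1.70 CPM, against 29.6 and 20.4 CPM. Over all cells Ifit2 and Rsad2 were called lower, as were 2.01% of genes. Ifit2 had 0.51 CPM in BPK tumor, against 3.30 and 92.8 CPM in BPK 4NQO. Of the 10 pathway calls for BPK tumor 3 held with DESeq2, among them Ifit2 over all cells, and in fibroblast-like cells Cxcl10 alone did. In luminal hormone-sensing-like cells, with 1.52% of genes called higher and the raised keratinocyte markers given above, Oas1a, which makes the activator of RNase L, had 31.2 CPM in BPK tumor, against 1.10 and 1.39 CPM in BPK 4NQO (4.78 ± 0.82, adjusted p = 3.7e-06). The type III interferon Ifnl3 in these cells had 28 UMIs in BPK tumor, against 3 and 1 UMIs in BPK 4NQO (5.21 ± 1.39, adjusted p = 0.013 in edgeR and 0.17 in DESeq2). Oas1a and Ifnl3 have close copies in the mouse genome, so their counts are uncertain where reads fit more than one copy. Ifnk, the keratinocyte interferon, was called higher over all cells, as were 2.83% of genes, with 5.22 CPM in BPK tumor, against 1.21 and 0.119 CPM in BPK 4NQO, and 209 of its 296 tumor UMIs were in keratinocyte-like cells.

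**Figure D4:**
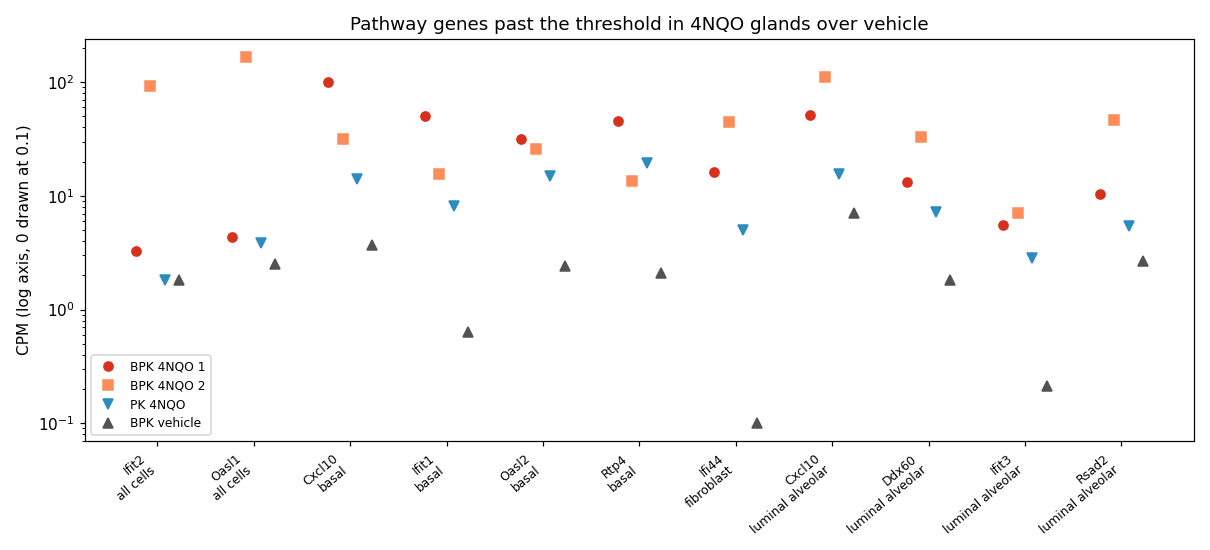
Level of pathway gene and class pairs that passed the threshold for BPK 4NQO against BPK vehicle, in CPM on a log axis by library, with zero counts drawn at 0.1. At most 4 genes of each list are shown per class, by fold, which leaves out Parp14 in basal-like cells. In every pair shown both BPK 4NQO libraries lie above BPK vehicle, and Oasl1 and Ifit2 over all cells are separated mainly by BPK 4NQO replicate 2.

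The interferon genes that feed this pathway were mostly scarce. In every library but PK 4NQO, Ifnb1 UMIs lay mainly in macrophage-like cells, whereas 8 of the 10 in PK 4NQO were in luminal alveolar-like cells. The macrophage-like level was 52.4 CPM in BPK tumor, 65.3 and 70.2 CPM in BPK 4NQO, 6.32 CPM in PK 4NQO (2 UMIs) and 61.2 CPM in BPK vehicle. Irf7 in the same cells had 170 and 294 CPM in BPK 4NQO, against 31.7 CPM in BPK vehicle. Ifng lay mainly in T and NK lymphocyte-like cells, at 182 and 212 CPM in BPK 4NQO, 274 CPM in PK 4NQO and 147 CPM in BPK vehicle (11 UMIs).

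Over 49 profiles of class and library, with 8715 candidate genes, those whose log2(CPM + 1) followed the mean z-score of the 9 members most closely were Parp14 (Pearson r = 0.864), Xaf1 (0.803), Gbp3 (0.793), Ifit1 (0.792) and Sec24b (0.791). Among the members themselves the closest pair was Ddx58 and Stat2 (0.838), followed by Irf7 and Irf9 (0.655), Ddx58 and Irf9 (0.635) and Ifih1 and Irf7 (0.624). The profiles share libraries and depth, so these values are a description.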

How the data were processed

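The authors deposited UMI counts per gene and cell barcode, made with Cell Ranger. Per the file headers, PK 4NQO was run with version 3.0.2 and every other library with 5.0.1. The build was mm10, per the submitters' processing notes, and per the labels the chemistry was 3' v2, although BPK 4NQO replicate 2 shares almost no barcodes with the others. No header or label names the cell-calling rule or the annotation release. The labelled 4NQO dose was not used because its unit is in doubt. Glands had been freed of lymph nodes and digested with enzymes, per the labels' protocols, before cells were captured.

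Barcodes with at least 300 genes and at most 20% mitochondrial UMIs were kept, 2070 predicted doublets were removed, and each library was clustered by itself (scanpy 1.11.5, Leiden resolution 2). Clusters were named from marker lists, and 146 of 161 clusters, with 29285 cells, received a name. Counts were summed per library and class and tested with edgeR 4.0.16 (quasi-likelihood, TMM, filterByExpr), adjusted over all genes of a class by Benjamini-Hochberg, with calls under 0.05. Contrasts between groups have 1 residual degree of freedom, from the BPK 4NQO pair, and share those libraries. Alternatives used DESeq2 1.42.0, RLE size factors, no filter, only the compared libraries, doublets kept, a gate on each cell, and each BPK 4NQO library left out. The test was also run on simulated luminal alveolar-like counts with large known changes in well-counted genes. The spread there was set and not taken from the BPK 4NQO pair, so the run does not cover genes with few UMIs or the spread of that pair. CPM intervals are exact Poisson 95% intervals and cover counting error only. The promoter windows are from RefSeq.

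The members and gene lists were chosen with earlier results of these data known. Clustering each library by itself, joining T and NK cells into one class, and the naming thresholds were chosen after clusters had been seen. All 9 members were described, pathway genes were named when past the threshold (at most 4 of each list per contrast and class by fold, with the other called genes listed by name), and 5 genes were named for likeness.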

Additional observations from a re-analysis of the deposited data

Results flagged for a closer look

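Some members moved in opposite directions in different classes after 4NQO, with both BPK 4NQO libraries on one side of BPK vehicle in each, in pairs with at least 10 UMIs. The difference between the classes was not tested. Values are the log2 ratio of the mean BPK 4NQO CPM to the BPK vehicle CPM. Mb21d1 was higher in luminal alveolar-like cells (1.28) and lower in endothelial-like cells (-0.60). Irf1 was higher in luminal alveolar-like (0.91), basal-like (1.25), fibroblast-like (0.64), pericyte-like (0.11) and macrophage-like cells (1.22) and lower in endothelial-like cells (-0.34). Several of these ratios come mainly from replicate 2. In luminal alveolar-like cells Irf1 had 124 and 334 CPM in BPK 4NQO replicates 1 and 2, beside 122 CPM in BPK vehicle. In macrophage-like cells it had 77.95 and 239.5 CPM, beside 68.0 CPM in BPK vehicle. Mb21d1 in luminal alveolar-like cells had 1.41 and 4.62 CPM in replicates 1 and 2. The Mb21d1 counts are low throughout, and the pericyte-like Irf1 ratio is small, with 490 and 445 CPM in BPK 4NQO beside 434 CPM in BPK vehicle.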

How the results depend on the processing

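Results that rest on calls shifted with the tool and the cell definition. The number of members called between BPK 4NQO and BPK vehicle was 1, and it was 2 with DESeq2 (Irf7 in luminal alveolar-like cells and over all cells), 0 with doublets kept and 3 with a gate on each cell. All genes called there over the classes numbered 297, against 139 with DESeq2. Between BPK 4NQO and PK 4NQO they numbered 244, against 51 with DESeq2, and no member was called by either. For BPK tumor the member calls numbered 1, against 3 with DESeq2. Of 67263 gene tests there, edgeR called 1101 higher (1.64%) and 793 lower (1.18%). The all-gene number with DESeq2 is not given here, so its 3 member calls are not read against it. The cause was not tested. Leaving out a BPK 4NQO library gave 30 to 36 member calls and 37868 to 39450 gene calls between classes, against 36 and 46796. The pairs above BPK vehicle numbered 56 to 68, those above PK 4NQO 51 to 68, and those below BPK 4NQO in BPK tumor 30 to 41. With totals that leave out ribosomal protein, mitochondrial and rRNA-like genes, which was added after seeing the data together with the pair counts for single libraries, the numbers were 55, 44 and 30. No called value reversed its sign under the alternatives run, but values that were not called did. With replicate 1 alone 16 pairs lay below BPK vehicle, against 4 with both libraries, among them Ddx58 and Tmem173 in endothelial-like cells. With RLE size factors 1 gene was called higher over all cells against BPK vehicle and 0 against PK 4NQO, against 75 and 59. Of 333 levels, 327 with doublets kept and 280 with the gate lay within the counting interval of the reported value. The median of all genes lay 0.20 above 0 on the log2 scale in T and NK lymphocyte-like cells and 0.14 above in pericyte-like cells for BPK 4NQO against BPK vehicle, so changes there are read relative to it. No paired analysis was possible because the groups compared share fewer than 2 replicate numbers. Depth limits Mb21d1 and the lymphocyte-like cells of BPK vehicle most.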
